A study of Mus musculus with 9 samples.

Results

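The comparison of heterozygous (het) mice with wild-type (WT) mice of the TAAR enhancer 2 knockout line is described here, and it asks what the loss of a single copy of the element did to receptor genes and to the rest of the transcriptome of the main olfactory epithelium (MOE). It rests on 6 of the 9 libraries of the series, 3 WT and 3 het, chosen by the genotype in the sample labels, and covers all genes in the count table. The other 3 libraries came from homozygous (homo) mice of the same line, entered the fit only to share the estimate of spread, and are quoted only beside het values. All mice were at postnatal day 14. The labels give the strain as C57BL/6, whereas the study names C57BL/6J zygotes for the deletion and, for its mouse lines as a whole, a mixed background of C57BL/6J and 129. The het mice carried a CRISPR-Cas9 deletion of TAAR enhancer 2 on 1 of the 2 copies of chromosome 10, from 1 established line, and the WT mice were littermates with both copies intact, per the study's methods. No other transgene, allele or agent is named for any group. The whole MOE was used, so each value is an average over all cell types of the tissue, and fewer cells of a type cannot be told apart from less RNA per cell. Nothing in the labels says that the 3 libraries of a genotype came from separate litters, and the p-values measure the spread between these libraries.

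Olfactory sensory neurons (OSNs) of the MOE each express a single receptor gene from 1 of its alleles. Most choose an odorant receptor (OR) gene, of which there are 2 classes, and a small set chooses a trace amine-associated receptor (Taar) gene, whose proteins detect volatile amines. Enhancers that bind LHX2, EBF and LDB1 act on clusters of receptor genes during this choice, and OR genes that are not chosen lie in heterochromatin. All 14 olfactory Taar genes (Taar2 to Taar9) lie in 1 cluster on chromosome 10, which spans 23920356 to 24109534 in the mm10 (GRCm38) build when Taar1, which is not an olfactory gene, is included.

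TAAR enhancer 2 lies in the 6.758 kb (chr10:23985647-23992404) between Taar6 and Taar7a. Both genes are on the minus strand, so that the element is upstream of Taar6 and downstream of Taar7a. The promoter windows of these flanking genes are shown because Taar6 was the Taar gene with the smallest p-value in het mice and Taar7a its partner across the deleted element. Each runs from 250 bases before to 50 bases after the start of the RefSeq transcript, is on the minus strand of GRCm38.p6, and is at chr10:23985597-23985896 for Taar6 and chr10:23993432-23993731 for Taar7a. Capitals mark matches to TAATNA, the core letters of homeodomain sites such as those of LHX2, on either strand.
Taar6: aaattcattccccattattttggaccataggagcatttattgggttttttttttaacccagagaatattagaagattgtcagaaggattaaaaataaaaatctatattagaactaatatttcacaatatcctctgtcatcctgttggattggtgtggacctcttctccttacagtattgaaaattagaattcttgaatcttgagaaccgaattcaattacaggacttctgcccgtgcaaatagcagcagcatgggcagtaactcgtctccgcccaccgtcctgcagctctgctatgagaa
Taar7a: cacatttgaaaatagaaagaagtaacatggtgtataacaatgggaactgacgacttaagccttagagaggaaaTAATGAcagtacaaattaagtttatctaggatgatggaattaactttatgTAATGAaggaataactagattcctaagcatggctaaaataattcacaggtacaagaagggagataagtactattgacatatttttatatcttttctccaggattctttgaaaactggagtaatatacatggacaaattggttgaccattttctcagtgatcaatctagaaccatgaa
The Taar7a window held 2 matches and the Taar6 window 0. RefSeq windows were given for 11 of the 14 olfactory Taar genes, and 7 of these held TAATNA, against 65.8% of 948 Olfr windows and 26.5% of all 32851 windows. The letters CCCNNGGG, the core of EBF sites, were in 0 of the 11 Taar windows, in 3.06% of Olfr windows and in 13.7% of all windows, and its letters cannot overlap with those of TAATNA. A match is only a description of the letters in the window. In both printed windows the last 50 bases begin with ATG, so the annotated start is that of the coding sequence. Whether these windows hold the promoters was not tested.

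Total counts of the 6 libraries ranged from 20527992 to 32262005. At this depth 3 counts, taken as the floor under which no fold is given, are worth 0.0928 to 0.147 CPM, where CPM stands for reads of a gene relative to the normalized size of its library, and this floor covers counting error only. Some of these libraries stood apart. WT replicate 3 had the highest level of the 6 libraries for 24.6% of all tested genes, and held the highest level of all 9 neutrophil markers. Het replicate 3 had the highest level of 122 of 137 tested vomeronasal receptor genes, although many of these passed the count filter only through that library. Xist, the RNA of the inactive X chromosome, was read at 50117 and 99540 counts in WT replicates 1 and 2 but at 38 counts in WT replicate 3, and at 62051 counts in het replicate 2 but at 26 and 49 counts in het replicates 1 and 3. So 2 WT libraries and 1 het library were high in Xist, and no label gives the sex. The summed level of Xist and the Y-linked genes Ddx3y, Kdm5d, Eif2s3y and Uty was 294 CPM in WT replicate 3. It was 251 and 359 CPM in het replicates 1 and 3, so the libraries low in Xist held Y-linked RNA. The genotypes were thus unbalanced in this. Results that rest on libraries that stood apart are given with and without them. Leaving out WT replicate 3 also leaves no WT library low in Xist.

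In the fit of all 9 libraries no gene was called between het and WT. Of 19775 genes tested with the edgeR quasi-likelihood test, 0 (0%) had a Benjamini-Hochberg adjusted p under 0.05 with a fold change over 1.5, and the smallest adjusted p was 0.999973. An unadjusted p under 0.05 was reached by 253 genes (1.28%), of which 171 were lower and 82 higher in het. With the replicate number as a block this count was 671, still with 0 genes called. Evenly spread p-values would put 989 genes under 0.05. Both fits thus gave fewer small p-values than a calibrated test would with no difference, and the cause was not tested. So 0 calls do not show that no gene differed. With the block in the 6 WT and het libraries alone 1 gene was called, Ccl3, a chemokine gene named for this after its value was seen (adjusted p = 0.0368 in edgeR). The Wald test of DESeq2 also called 0. The fold changes were centred near 0, with a median of -0.01 and quartiles of -0.12 and 0.09 on the log2 scale. In 385 genes (1.95%) all 3 het libraries lay below all 3 WT libraries, and in 397 genes (2.01%) all lay above.

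Taar6, which encodes a receptor for amines and borders the deleted element, was read at 6.57, 6.62 and 6.27 CPM in WT replicates 1 to 3 and at 4.54, 4.42 and 5.23 CPM in het replicates 1 to 3. All 3 het libraries were below all 3 WT libraries. The het level was 73.0% of WT, with a 95% interval from 56.9% to 93.6%, and a log2 fold change of -0.45 ± 0.16 (SE, n = 3 per genotype, unadjusted p = 0.0185 in edgeR, not called). This interval excluded both 50% and 100% of the WT level. It is not adjusted for the choice of the Taar gene with the smallest p-value, so an intermediate level is not established. Within each replicate number the het level was 69.1%, 66.8% and 83.4% of WT. With the replicate block the unadjusted p in edgeR was 0.0143. Without het replicate 1 the unadjusted p in edgeR was 0.0544, and without het replicate 2 it was 0.0769. In homo mice Taar6 stood at 0.663 ± 0.071 CPM (SD, n = 3).

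**Figure D1:**
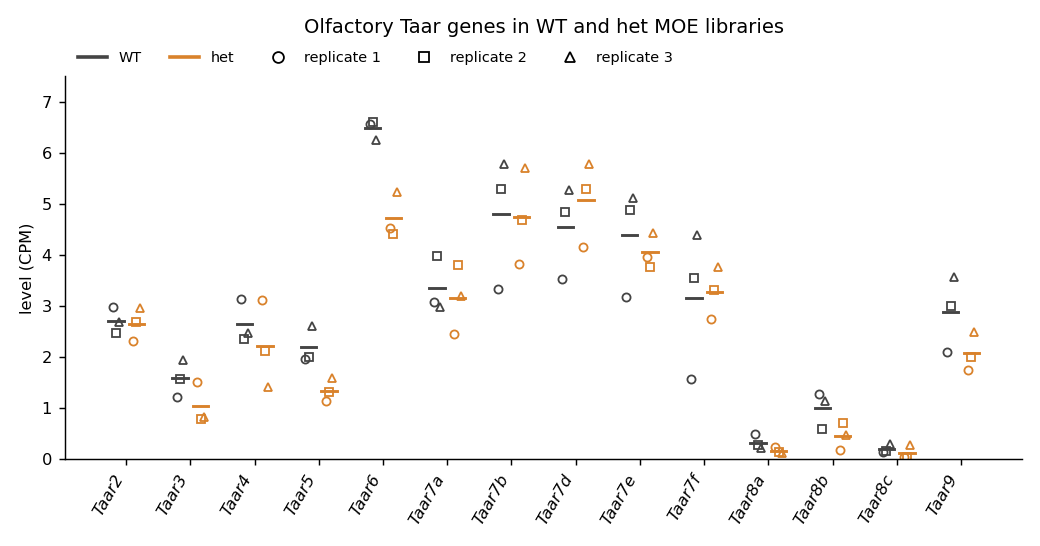
Level (CPM, linear axis) of the 14 olfactory Taar genes in each WT (grey) and het (orange) library; symbols mark the replicate number and bars the mean of 3 libraries. Taar6 averages 6.49 CPM in WT and 4.73 CPM in het and Taar5 averages 2.20 and 1.35 CPM, both with no overlap, whereas the libraries of both genotypes are mixed for the other genes.

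Taar5, the receptor for trimethylamine, was the other Taar gene without overlap between genotypes. It was read at 1.96, 2.01 and 2.62 CPM in WT and at 1.14, 1.32 and 1.58 CPM in het, with all het libraries below all WT libraries. The het level was 61.5% of WT with an interval from 33.5% to 113% (log2 fold change -0.70 ± 0.39 SE, unadjusted p = 0.104 in edgeR). Taar9 was read at 2.11, 2.999 and 3.57 CPM in WT and at 1.75, 2.002 and 2.495 CPM in het, and the genotypes overlapped, although het was the lower within each replicate number. The value for Taar9 was 71.9% of WT, from 46.3% to 112%, with an unadjusted p of 0.124 in edgeR and of 0.0466 with the replicate block. Taar6 and Taar9 were the 2 Taar genes at an unadjusted p under 0.05 with the block, against Taar6 without it. Over all 19775 tested genes 671 were under 0.05 with the block and 253 without it. With a term for high Xist these were again 2 genes, Taar6 and Taar5 (unadjusted p = 0.0415 in edgeR for Taar5).

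Taar3, which detects isoamylamine, was read at 1.23, 1.58 and 1.95 CPM in WT and at 1.51, 0.793 and 0.832 CPM in het. Replicates 2 and 3 of het were below all WT libraries and replicate 1 lay among them, and the het level was 65.5% of WT (38.0% to 113%). The 3 Taar8 genes had the lowest levels of the cluster. Taar8b was at 26, 19 and 31 counts in WT and at 4, 19 and 12 counts in het, 47.3% of WT with an interval from 19.9% to 112%. The counts of Taar8a were 10, 9 and 6 in WT and 5, 4 and 3 in het, and those of Taar8c were 3, 5 and 8 in WT and 1, 1 and 7 in het. These 3 genes are close copies of one another, and how reads shared by copies were counted is not stated. In homo mice Taar8a and Taar8c had no counts.

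The Taar2 and Taar7 genes were at levels close to WT. Taar2 was read at 2.99, 2.47 and 2.69 CPM in WT and at 2.32, 2.68 and 2.97 CPM in het. The libraries of both genotypes were mixed, and the het level was 98.0% of WT with an interval from 72.0% to 133%. Taar4, a receptor for phenylethylamine, was at 83.7% of WT (52.4% to 134%), with 3.14, 2.35 and 2.47 CPM in WT and 3.12, 2.12 and 1.43 CPM in het. Het replicate 3 was the lowest of the 6 libraries for this gene. Of the 5 Taar7 genes, Taar7a, on the far side of the deleted element, was at 94.2% of WT (66.4% to 134%). It stood at 3.09, 3.99 and 2.99 CPM in WT and at 2.46, 3.82 and 3.21 CPM in het. The remaining members ran from 92.1% of WT in Taar7e to 111% in Taar7d, and all of their intervals held 100%. The sign of 4 Taar genes depended on the processing, namely Taar2, Taar7a, Taar7b and Taar7f.

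Counted over the cluster, 12 of 14 Taar genes were lower in het, against 10351 of all 19775 tested genes. The median log2 fold change was -0.36, against -0.01 over all tested genes. Of the 12, 5 were lower by over 1.5-fold (Taar3, Taar5, Taar8a, Taar8b and Taar8c), against 1514 of all tested genes. WT replicate 3 had the highest level of the 6 libraries for 7 of 14 Taar genes (50%, against 24.6% of all tested genes). The number of lower genes ran from 9 to 13 when single libraries were left out, 9 without het replicate 1 and 13 without het replicate 3. Het lay wholly below WT in 2 of 14 Taar genes (14.3%, against 1.95% of all genes) and wholly above in 0 of 14. The 95% interval of the het level held 100% of WT in 13 of 14 genes, lay above 50% in 8 of 14 and held 50% in 6 of 14, and in these 6 it held 50% and 100% alike. For these 6 genes, Taar3, Taar5, Taar8a, Taar8b, Taar8c and Taar9, the precision did not separate a level of 50% from the full WT level. Taar8a, Taar8b and Taar8c had the widest intervals and the fewest counts.

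**Figure D2:**
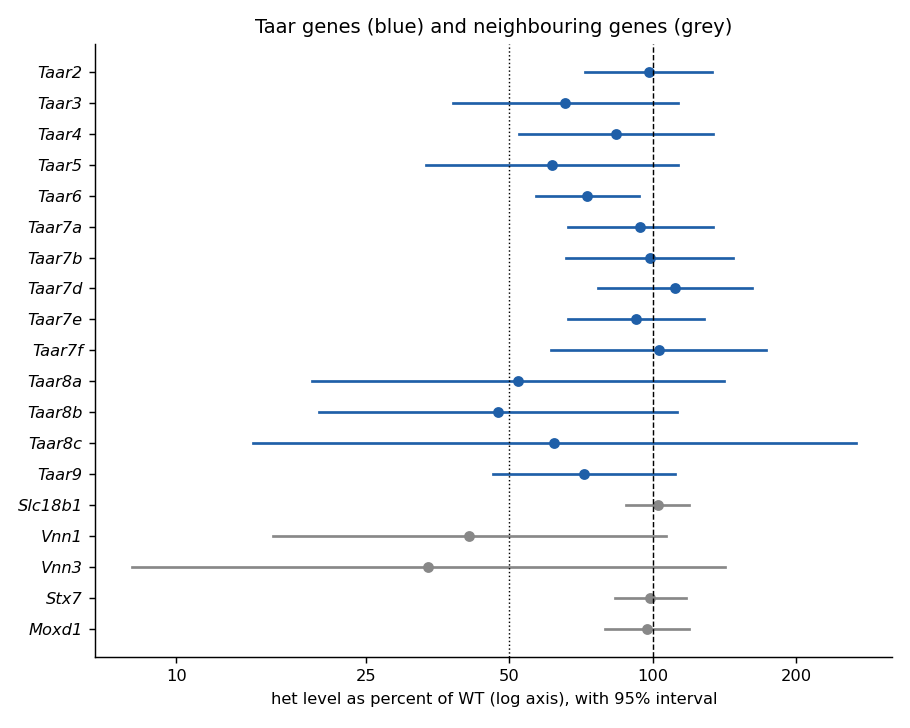
Het level as percent of WT (log axis) for the 14 olfactory Taar genes (blue) and 5 neighbouring genes (grey), with the 95% interval from the edgeR fit (n = 3 per genotype); dotted and dashed lines mark 50% and 100%. The Taar6 interval, from 56.9% to 93.6%, lies between the lines, and every other interval crosses 100%. The intervals are not adjusted for the number of genes.

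The summed level of the 14 genes was 34.63, 41.62 and 44.78 CPM in WT and 32.02, 35.13 and 38.30 CPM in het. The highest het library exceeded the lowest WT library, but within each replicate number het was the lower, at 92.5%, 84.4% and 85.5% of WT. The ratio of means was 87.1%, and 92.2% when WT replicate 3 was left out without a new fit. Homo mice stood at 17.59, 22.67 and 20.96 CPM. The make-up of the Taar pool was then compared as the share of each gene in the summed level of its library. Taar7d took 10.2%, 11.7% and 11.8% of the pool in WT and 13.0%, 15.1% and 15.1% in het. Taar5 took 5.67%, 4.83% and 5.84% in WT and 3.55%, 3.76% and 4.14% in het. These shares did not overlap between genotypes, with Taar7d higher and Taar5 lower in het, and since shares add to 100%, a rise in some follows from a fall in others. In homo libraries Taar7d took 21.6%, 26.9% and 22.7% of the pool, and Taar5 took 2.58%, 0.475% and 0.709%. For Taar6 the shares overlapped, at 18.98%, 15.90% and 13.99% in WT and at 14.2%, 12.6% and 13.7% in het.

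Of the 14 genes outside the Taar family within 1 Mb of the cluster, all tested, 10 were lower and 4 higher in het, with 0 at an unadjusted p under 0.05. Snora33, a small nucleolar RNA gene, was at 6, 11 and 5 counts in WT and at 9, 11 and 11 counts in het. By CPM all its het libraries lay above all WT libraries (1 of 14 genes, 7.14%, against 2.01% of all genes). Slc18b1, a polyamine transporter gene, was at 102% of WT (87.8% to 119%), Stx7, a syntaxin of endosomes, at 98.9% (83.3% to 117%), and Moxd1, a monooxygenase, at 97.2% (79.5% to 119%). Vnn1 and Vnn3, which encode pantetheinases, had the lowest values of the 5 fixed neighbours. Vnn1 was read at 1.37, 2.47 and 8.77 CPM in WT and at 1.04, 1.85 and 2.30 CPM in het. WT replicate 3 stood far above the other 5 libraries for both genes, and without it the Vnn1 log2 fold change moved from -1.28 to -0.17 and that of Vnn3 from -1.56 to -0.04. The unadjusted p of Vnn1 in edgeR was 0.0654, and 0.0233 with the replicate block. Neutrophil and interferon genes were high in the same library, and their part in these values was not tested.

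OR genes were on balance slightly higher in het. Of 1125 OR genes, 1088 were tested, and 762 (70.0%) had a higher and 326 a lower level in het, against 47.7% higher over all tested genes. Their median log2 fold change was 0.12, with quartiles of -0.04 and 0.26. Het lay wholly above WT in 69 OR genes (6.34%, against 2.01% of all genes) and wholly below in 16 (1.47%, against 1.95%). The summed OR level was 3322, 3853 and 3425 CPM in WT and 3538, 3895 and 4113 CPM in het. The genotypes overlapped, and het was at 106%, 101% and 120% of WT within replicate numbers 1, 2 and 3. The difference was therefore uneven over the pairs, and without WT replicate 3 the median was 0.09 and without het replicate 3 it was 0.07. The shift was of like size from the least to the most abundant OR genes, with medians of 0.11, 0.10, 0.12 and 0.13 over 4 equal groups ordered by mean CPM. It was seen on all 13 chromosomes with at least 10 OR genes, with medians from 0.05 on chromosome 7 to 0.16 on chromosome 2. These groups come from the same 6 libraries and do not repeat the comparison. Within replicate numbers 1, 2 and 3 the sum was 107%, 102% and 131% of WT on chromosome 2. On chromosome 7 it was 107%, 99.5% and 105%. Het replicate 3 had the highest level for 330 of the 1088 genes (30.3%, against 15.2% of all tested genes). Single OR genes were not called. An unadjusted p under 0.05 was reached by 13 higher and 3 lower OR genes (1.47%, against 1.28% of all genes), and with the replicate block 40 higher and 3 lower.

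**Figure D3:**
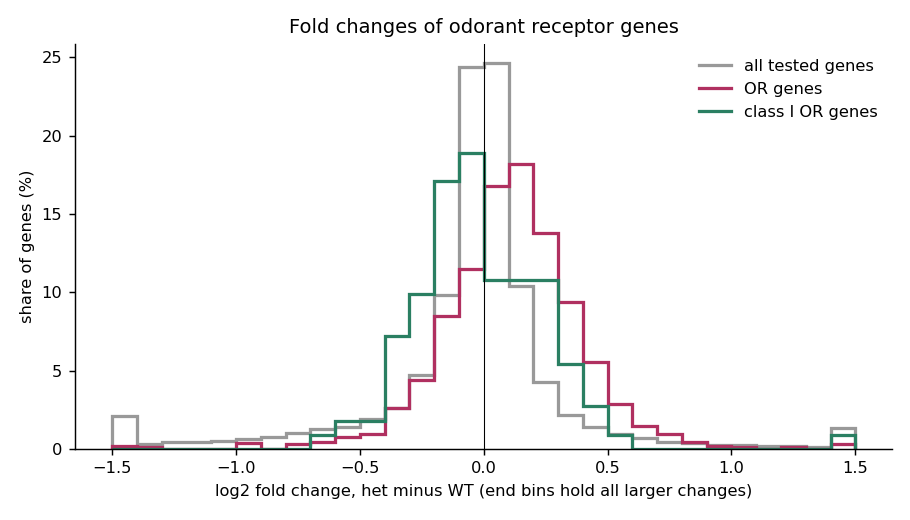
Share of genes (%) by log2 fold change (het minus WT, bins of 0.1) for all tested genes, the 1088 tested OR genes and the 111 tested class I OR genes; changes beyond 1.5 are in the end bins. The OR curve is shifted to the right, with a median of 0.12, and the class I curve to the left, with a median of -0.05.

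Class I OR genes had a median near 0. Class I ORs, which resemble the receptors of fish and cluster on chromosome 7, were taken as the 115 genes from Olfr543 to Olfr692 there, and 111 were tested. Their median was -0.05, and 42.3% were higher in het (47.7% of all genes). Het lay wholly below WT in 6.31% of them (1.95% of all genes) and wholly above in 0.901% (2.01% of all genes). Their sum was 303, 340 and 389 CPM in WT and 327, 338 and 351 CPM in het. WT replicate 3 was the highest of these libraries, and without it the class I median was 0.05. The other OR genes had a median of 0.13, with 73.2% higher in het. Whether the classes differ was not tested.

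The 5 OR genes with the smallest p-values were all higher in het. They were picked by p-value, which largely sets their lack of overlap between genotypes. Olfr768, which lies on chromosome 10 like the Taar cluster, was read at 2.01, 1.61 and 1.62 CPM in WT and at 2.51, 2.91 and 2.53 CPM in het. Het was above WT in all libraries, at 152% of WT (unadjusted p = 0.0169 in edgeR). Olfr1155 (146% of WT), Olfr393 (140%), Olfr1029 (170%) and Olfr225 (198%) followed, each with all het libraries above all WT libraries and with unadjusted p-values from 0.0176 to 0.0191 in edgeR. Olfr225 is 1 of 20 OR genes annotated as pseudogenes in the table. The 5 OR genes with the highest WT level did not separate the genotypes. Olfr536, the highest, was at 109, 136 and 102 CPM in WT and at 119, 120 and 124 CPM in het, 105% of WT (87.1% to 126%). Olfr1507 was at 60.04, 52.6 and 30.4 CPM in WT and at 67.4, 54.7 and 57.9 CPM in het. Its lowest value was that of WT replicate 3, and the het level was 126% of WT (87.4% to 181%). Olfr1372-ps1, Olfr727 and Olfr166 were between 110% and 114% of WT.

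Vomeronasal receptor genes, which serve the neurons of the vomeronasal organ, a separate structure at the base of the nasal septum, were high in a single het library. The summed level of all Vmn1r and Vmn2r genes was 32.1, 23.5 and 14.3 CPM in WT and 16.5, 20.7 and 128 CPM in het. Het replicate 3 was thus far above every other library. Of 137 such genes tested 128 were higher in het with a median log2 fold change of 2.20, and in 122 (89.1%, against 15.2% of all tested genes) the highest level was that of het replicate 3. Of the 137 genes 6 (4.38%, against 1.28% of all genes) had an unadjusted p under 0.05, with 0 called. With the replicate block 11 had one, against 671 of all 19775 genes. Without this library the median was -0.35 over 13 Vmn1r and -0.12 over 33 Vmn2r genes that were still tested, against 46 and 91 tested with it. The others passed the filter of 10 summed counts only through het replicate 3. Their direction and highest library were thus largely set by the filter, so the 89.1% cannot be read against the 15.2%. Vmn2r78, among the 20 genes with the smallest p-values, was at 1, 5 and 1 counts in WT and at 4, 10 and 31 counts in het. Het replicate 3 was the highest, and no fold is given, since the WT counts averaged below the floor. Trpc2, the channel of vomeronasal neurons, was listed at 0 in all 9 libraries, het replicate 3 included. This 0 cannot be read as absence of the gene's RNA, since how reads were counted for this symbol was not tested. The part of this signal in the higher OR level of the same library was not tested.

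The machinery that OSNs share stayed near the WT level. All 15 genes of odorant signal transduction had log2 fold changes between -0.05 (Cnga4) and 0.16 (Slc24a4), and 0 of them had an unadjusted p under 0.05. Gnal, the G protein subunit coupled to ORs and TAARs, was at 105% of WT (88.7% to 124%), Adcy3, the adenylyl cyclase, at 105% (89.4% to 122%), and Cnga2, the channel subunit, at 100.3% (86.5% to 116%). Omp, the marker of mature OSNs, was read at 2129, 2087 and 2110.3 CPM in WT and at 2109, 2191 and 2011 CPM in het. These values were mixed between genotypes, and the interval of the het level was from 83.8% to 119% of WT. Lhx2 and Ldb1, whose proteins bind receptor enhancers, were at 104% (61.3% to 176%) and 97.5% (79.4% to 120%). Ebf2, of the same set of factors, was read at 650, 653 and 574 CPM in WT and at 717, 689 and 663 CPM in het. All het libraries were above all WT libraries, at 110% of WT (94.9% to 128%, unadjusted p = 0.175 in edgeR). Of the 15 genes for receptor choice and transport 9 were higher and 6 lower, of 10 heterochromatin genes 6 were higher and 4 lower, and of 11 genes of axon guidance and activity 8 were higher and 3 lower, with 0 at an unadjusted p under 0.05 in any of these lists. With the replicate block 1 gene of receptor choice was under 0.05. Without WT replicate 3 the direction of the receptor choice list turned, with 10 genes lower and 5 higher. In that setting 3 heterochromatin genes were lower and 7 higher, and 4 genes of axon guidance and activity were lower and 7 higher.

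Among markers of the cell types of the MOE, the direction of several lists turned when a WT library was left out. All 12 genes of immature OSNs, such as Gap43 and Dcx, were higher in het, with log2 fold changes from 0.04 to 0.18 and 0 of 12 at an unadjusted p under 0.05. Without WT replicate 3, 11 of the 12 were lower. The sums of this list were 4349, 3837 and 3115 CPM in WT and 4421, 3904 and 3709 CPM in het. Of 10 genes of sustentacular cells, the supporting cells of the epithelium, 8 were higher with a median of 0.16, and the median was 0.04 without WT replicate 3. Cyp2g1, a cytochrome P450 of these cells, was read at 1829.8, 2121 and 1117 CPM in WT and at 1917, 2149 and 1944 CPM in het. WT replicate 3 was the lowest, far below the other 5 libraries. Of 16 genes of basal and progenitor cells 9 were lower and 7 higher. At an unadjusted p under 0.05 was 1 (Icam1, 6.25%, against 1.28% of all genes), and 4 were with the replicate block. Of 8 genes of respiratory ciliated cells 7 were lower with a median of -0.13, and of 11 gland and secretory genes 8 were lower with a median of -0.15. Without WT replicate 1, 6 of the 8 ciliated-cell genes and 11 of the 16 basal and progenitor genes were higher, and without WT replicate 3 all 8 and 12 of 16 were lower. The ciliated-cell and gland lists had no gene at an unadjusted p under 0.05, and with the replicate block 2 ciliated-cell genes were under it. All 4 endothelial and all 7 macrophage genes were lower, the latter with a median of -0.39, and without WT replicate 3 the macrophage genes were 3 lower and 4 higher. The endothelial median went from -0.22 to -0.05 without that library, with 3 genes lower and 1 higher. Glial genes (3 lower, 5 higher), microvillous genes (5 lower, 5 higher) and genes of non-canonical sensory neurons (3 lower, 5 higher) were split. Of 6 zonal genes 5 were higher, and without WT replicate 3 they were 3 lower and 3 higher. Without it the glial genes were 5 lower and 3 higher.

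**Figure D4:**
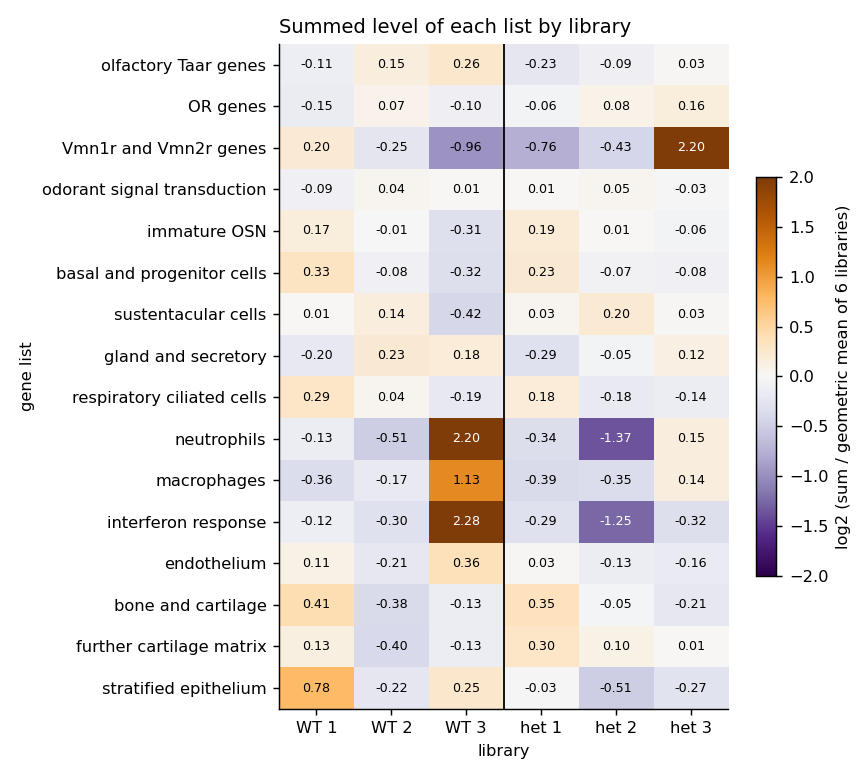
Summed level of 16 gene lists in each library as log2 of the ratio to the geometric mean of the 6 libraries; rows are lists, columns are libraries, and orange and purple mark higher and lower sums. WT replicate 3 holds 2.20 for neutrophil and 2.28 for interferon genes, het replicate 3 holds 2.20 for vomeronasal receptor genes, and the row of odorant signal transduction stays between -0.09 and 0.05.

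Inflammatory and interferon genes were lower in het, through 1 WT library. All 9 neutrophil genes were lower, with 0 at an unadjusted p under 0.05, and without WT replicate 3, 8 of the 9 were higher. Lcn2, an iron-binding protein of neutrophils and inflamed epithelium, was at 20.7, 134 and 1715 CPM in WT and at 19.8, 17.3 and 286 CPM in het. Replicate 3 was the highest of each genotype, and without WT replicate 3 the log2 fold change went from -2.53 to 0.47. The summed level of 12 interferon-response genes, a list made after their values were seen, was 204, 181 and 1073 CPM in WT and 182, 93.0 and 178 CPM in het. All 12 were lower in het and 8 (66.7%, against 1.28% of all genes) were at an unadjusted p under 0.05, with 0 of them called. Both counts were set by the choice of the list. With the replicate block 11 were under 0.05 and again 0 called, and Cxcl10 of this list was called with the block and a term for high Xist together. Without WT replicate 3, 11 were lower, 0 had such a p-value, and the median went from -2.20 to -0.28. Oasl1, an interferon-induced antiviral gene, was at 57, 68 and 600 counts in WT and at 26, 22 and 44 counts in het. Het was below WT in all libraries, and the log2 fold change was -2.83 with WT replicate 3 and -0.95 without it. Rsad2 moved likewise from -2.41 to -0.08, and Irf7 from -2.18 to -0.54.

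In the list of bone and cartilage, 3 of 9 genes (33.3%, against 1.28% of all genes) had an unadjusted p under 0.05. All 3 had a higher level in het, and 0 were called. Acan, the main proteoglycan of cartilage, was read at 38.2, 12.5 and 36.3 CPM in WT and at 63.5, 63.6 and 52.1 CPM in het. All het libraries were above all WT libraries, at 207% of WT (114% to 373%, log2 fold change 1.05 ± 0.38 SE, unadjusted p = 0.0225 in edgeR). Col10a1, the collagen of hypertrophic cartilage, was at 62.2, 40.2 and 125 CPM in WT and at 128, 150 and 154 CPM in het. Again there was no overlap, at 190% of WT (unadjusted p = 0.0221 in edgeR). Col9a1 behaved alike at 145% of WT (unadjusted p = 0.0275 in edgeR), whereas Col2a1, the main cartilage collagen, overlapped at 132, 26.0 and 54.6 CPM in WT and 227, 121 and 102 CPM in het. Over the 9 genes 6 were higher and 3 lower with a median of 0.08, and the bone collagens Col1a1 and Col1a2 were at 99.96% and 100.7% of WT. In a second list of 15 cartilage genes, made after values were seen so that its direction was set by the choice, 14 were higher with a median of 0.50. Clec3a was at 232% of WT (unadjusted p = 0.0119 in edgeR) and Comp at 157% (unadjusted p = 0.0148 in edgeR). They were the 2 genes of this list (13.3%, against 1.28% of all genes) under an unadjusted p of 0.05. With the replicate block 12 were, 11 of them higher, against 671 of all 19775 genes. Without WT replicate 3 all 15 were higher. The sum of this list was 1035, 718 and 863 CPM in WT and 1163, 1012 and 955 CPM in het, lowest in WT replicate 2. The list was not counted without that library, so its dependence on it was not tested. No gene of either list was called. In homo mice Acan stood at 56.1 ± 19.5 CPM and Clec3a at 16.7 ± 2.43 CPM (SD, n = 3), and these are compared with the same WT libraries.

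A list of 12 genes of stratified epithelium, the layered lining found at the front of the nasal cavity, was also made after values were seen, so that its direction was set by the choice. All 12 had a lower level in het with a median of -1.45, and 0 were called. Of the 12, 7 (58.3%, against 1.28% of all genes) had an unadjusted p under 0.05. With the replicate block 10 had one, against 671 of all 19775 genes. The choice of the list set these counts too. Emp1, a membrane protein of epithelia, was at 72.3, 67.1 and 80.3 CPM in WT and at 55.9, 59.6 and 65.0 CPM in het. Het was below WT in all libraries, at 82.1% of WT (70.8% to 95.3%, unadjusted p = 0.015 in edgeR). Upk1b, a uroplakin, was at 9.07, 4.39 and 8.33 CPM in WT and at 4.59, 3.21 and 4.08 CPM in het, 54.6% of WT (34.7% to 86.0%). The highest het library was just above WT replicate 2. Krt6a and Krt4, keratins of such epithelia, were high in WT replicate 1, with 339 and 234 counts, against 9 and 87 counts in het replicate 1 and 23 counts or fewer in the other WT and het libraries. The sum of the list was 212, 106 and 147 CPM in WT and 121, 86.8 and 103 CPM in het, highest in WT replicate 1. Without that library 9 of the 12 were lower, 2 had such a p-value and the median was -0.46, and without WT replicate 3 all 12 were lower and 4 had one. Krt14, the keratin of horizontal basal cells, was at 29.3, 18.9 and 26.8 CPM in WT and at 21.1, 15.4 and 18.9 CPM in het. Its unadjusted p in edgeR was 0.0507, and 0.00237 with the replicate block.

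The 20 genes with the smallest p-values held 13 lower and 7 higher genes, of which 3 are Riken or microRNA symbols. The smallest p belonged to Atp13a4, a cation-transporting ATPase, which was read at 32, 33 and 39 counts in WT and at 8, 4 and 11 counts in het. Het was below WT in every library, at 24.2% of WT (11.98% to 48.7%, log2 fold change -2.05 ± 0.45 SE, unadjusted p = 0.00122 and adjusted p = 0.999973 in edgeR). When single WT or het libraries were left out, the fold change stayed between -2.35 and -1.69. Upp2, a uridine phosphorylase, was at 2.21, 2.20 and 2.06 CPM in WT and at 3.45, 3.70 and 3.33 CPM in het. Het was above WT in every library, at 162% of WT (122% to 214%, unadjusted p = 0.00354 in edgeR), and in homo mice the level was 2.63 ± 0.333 CPM (SD, n = 3).

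A pair of serotonin genes was in this group. Slc6a4, the serotonin transporter, was at 1.08, 1.18 and 1.25 CPM in WT and at 1.94, 2.15 and 1.70 CPM in het, 165% of WT. Htr2b, a serotonin receptor, was at 9, 14 and 17 counts in WT and at 5, 4 and 3 counts in het, 33.9% of WT. Neither gene overlapped between genotypes, and they moved in opposite directions. Il23r, the interleukin 23 receptor, was at 21, 26 and 16 counts in WT and at 9, 4 and 6 counts in het. Tslp, an epithelial cytokine, was at 6, 15 and 11 counts in WT and at 1, 5 and 2 counts in het. Het was the lower in each of these pairs of groups. Cers3, a ceramide synthase of the skin barrier, was at 22, 16 and 17 counts in WT and at 4, 3 and 7 counts in het, 27.1% of WT (12.03% to 61.2%). Prss27, a protease of squamous epithelium, had 67, 1 and 10 counts in WT and 1, 0 and 1 counts in het, and WT replicate 1 held most of its reads. Skint2, of a family expressed in skin and thymus, was higher, with 2, 5 and 2 counts in WT and 6, 11 and 8 counts in het.

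**Figure D5:**
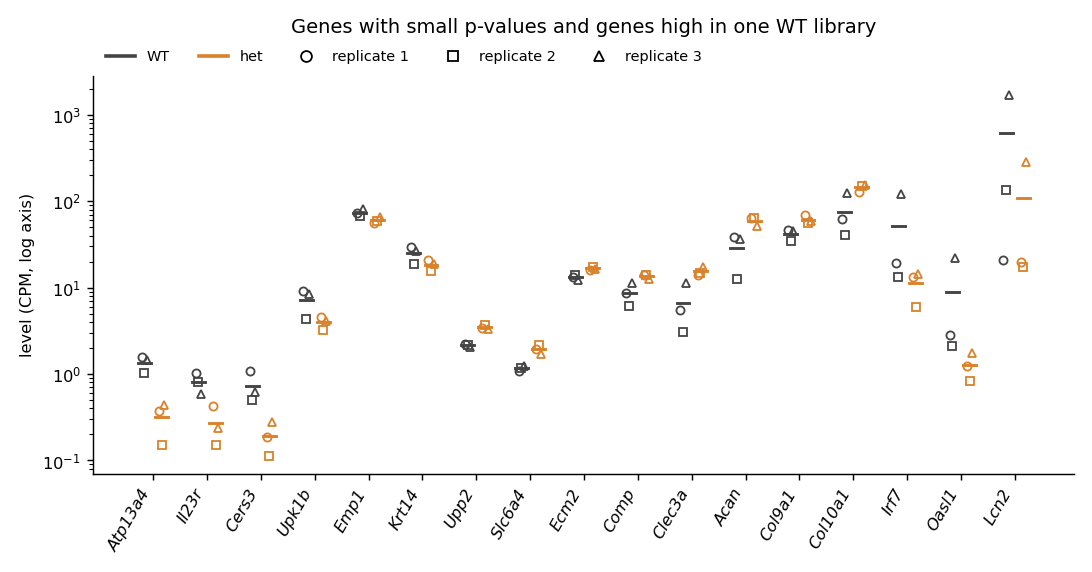
Level (CPM, log axis) of 17 genes in each WT (grey) and het (orange) library, with symbols for the replicate number and bars for the mean of 3 libraries. Atp13a4 lies lower in het (0.322 against 1.34 CPM) and Upp2 higher (3.49 against 2.16 CPM) with no overlap, and the WT means of Irf7, Oasl1 and Lcn2 are set by WT replicate 3.

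Several of the 20 genes rested on very few reads. In 5 of them all libraries of a genotype had 3 counts or fewer, and no fold is given for these. Spata9, a testis gene, had 10, 7 and 10 counts in WT and 2, 2 and 2 counts in het, and Cnih3, an auxiliary protein of glutamate receptors, had 6, 13 and 4 counts in WT and 2, 0 and 0 counts in het. Terc, the RNA of telomerase, was at 6, 8 and 7 counts in WT and at 10, 27 and 23 counts in het. Zfp92, a zinc finger gene on the X chromosome, was at 18, 22 and 35 counts in WT and at 11, 10 and 11 counts in het. The more abundant Ecm2, of the extracellular matrix, was at 13.1, 13.9 and 12.4 CPM in WT and at 16.2, 17.4 and 16.6 CPM in het, 127% of WT (106% to 152%). For Terc, Zfp92 and Ecm2 the genotypes did not overlap. A term for high Xist raised the genes at an unadjusted p under 0.05 from 253 to 958, with 0 called.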

How the data were processed

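RNA from whole MOE was made into strand-specific, polyA-selected libraries. Per the labels, reads were trimmed with Trimmomatic 0.36, mapped to mm10 (GRCm38) with HISAT2 2.1.0 and counted with featureCounts of Subread 1.6.2. The authors deposited raw counts per gene symbol for 24421 genes, the only values used here, and normalized counts from DESeq2 1.20.0, which were not used. The annotation release, the strand setting and the treatment of multi-mapping reads are not given in the sources used here. Depth per library and the floor of 3 counts are given with the results.

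Counts were tested with the edgeR 4.0.16 quasi-likelihood test (R 4.3.3, two-sided, TMM) in 1 fit of all 9 libraries, over 19775 genes with at least 10 counts in sum. A gene was called at a Benjamini-Hochberg adjusted p under 0.05 with a fold change over 1.5. Standard errors and 95% intervals came from that fit. Sums, shares and medians over lists have no test. The fit recovered most of the largest changes put into simulated counts. Those counts had independent libraries, a smaller spread than these data (common dispersion 0.0545) and changes only in well-read genes. The check therefore does not give the power for changes of the size seen in Taar genes. Deviations of same-numbered WT and het libraries from their group means correlated at 0.68, 0.458 and 0.588 over 16169 genes, all above 0.1. Libraries of unlike number correlated from -0.743 to 0.0492. The pairing was therefore taken from the data for values within a replicate number, and the labels do not say what a number stands for. The main fit has no block, so its p-values ignore this pairing. The fit with the number as a block is an alternative. No pair of libraries agreed within sampling noise. Gene positions are from GENCODE M21 and promoter windows from RefSeq.

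The members, gene lists and tests were chosen with earlier results of these data known. Named are all Taar genes, 5 neighbours, the 20 genes with the smallest p, 5 OR genes with the smallest p, 5 with the highest WT level, and members of the gene lists. The interferon, stratified epithelium and second cartilage lists, the Xist term, and the genes within 1 Mb were chosen after values were seen. Other alternatives were 2 normalizations, 2 filters, the 6 libraries alone, a term for replicate number 1, DESeq2 1.42.0, limma-voom (limma 3.58.1) and leaving out each library.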

Additional observations from a re-analysis of the deposited data

How the results depend on the processing

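The het against WT comparison gave 0 called genes under all but 2 of 21 alternatives. With the replicate block in the 6 WT and het libraries 1 gene was called (Ccl3), and with the block and a term for high Xist, chosen after seeing the data, 18 were, among them Mx1, Mx2, Cxcl10 and Oasl2. The count of genes at an unadjusted p under 0.05 (253) was 149 in the WT and het libraries alone, 671 with the replicate block, 820 with the block in those 6 libraries, 590 with a term for replicate number 1, 958 with the Xist term, 2037 with the block and the Xist term, and between 165 (without het replicate 2) and 1040 (without WT replicate 2) when single libraries were left out, with 753 without WT replicate 1. The causes were not tested. The block changed no other call. The summed Taar level of het lay between 82.2% and 91.7% of WT, the median of OR genes between 0.07 and 0.18, and the summed OR level between 105% and 114%, over the libraries left out. Of 60 named genes 50 kept their direction under every alternative that gave a value for them. The edgeR filter on expression removed Cnih3, Prss27, Skint2, Spata9, Taar8a, Taar8c, Tslp and Vmn2r78, which have no value there. The other 10 changed sign, all with a log2 fold change near 0 apart from Lcn2, and the cause was not tested. Over the libraries left out the log2 fold change ran from -0.12 to 0.0583 in Taar2, from -0.23 to 0.0637 in Taar7a, from -0.21 to 0.12 in Taar7b, from -0.26 to 0.33 in Taar7f, from -0.0068 to 0.0926 in Slc18b1, from -0.0806 to 0.0778 in Stx7, from -0.15 to 0.0886 in Moxd1, from -0.0281 to 0.20 in Olfr536, from -0.0159 to 0.36 in Olfr1372-ps1 and from -5.07 to 0.47 in Lcn2. Scaled to library totals it was 0.0050 in Taar7b and 0.0084 in Stx7, with the Xist term 0.0057 in Taar2, -0.0294 in Taar7f and 0.0167 in Stx7, and with the block and the Xist term 0.0389 in Taar2, -0.12 in Taar7f and 0.0321 in Moxd1. Depth limits the Taar8 genes, which had at most 31 counts in a library.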
